A study of Mus musculus with 7 samples.

Results

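The cyclin-dependent kinase (CDK) inhibitors and the pocket proteins, the brakes of the G1 phase of the cell cycle, were followed in the prostate of Nkx3.1-/- mice given the antioxidant N-acetylcysteine (NAC). The genes were chosen by name: the CIP/KIP inhibitors Cdkn1b and Cdkn1c, the INK4 inhibitors Cdkn2a, Cdkn2b, Cdkn2c and Cdkn2d, and the pocket proteins Rb1, Rbl1 and Rbl2. They are 9 of the 18938 genes measured, and each was read by 1 probe set. Cdkn1a, the CIP/KIP inhibitor p21, is not reported here because its probe set names a second gene. RNA was measured on Affymetrix whole-transcript arrays (Mouse Gene 1.0 ST), 1 mouse per array, with 4 arrays from mice that drank 5 mM NAC and 3 arrays from mice that drank plain water (vehicle). All 7 mice were homozygous for the Nkx3.1 null allele on a recombinant inbred B6/129 background, had been treated for 13 weeks from weaning and were 16 weeks old. No array of a wild-type mouse was compared. The methods name the anterior prostate as the tissue, whereas the tissue label names the prostate as a whole. The study asked whether an antioxidant restrains growth in the mutant gland, and stained it for p16, p21 and p27 as marks of cells that had left the cycle. The values here are RNA levels, not protein levels.

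In a cell that is not dividing, the pocket proteins (Rb1, p107 from Rbl1 and p130 from Rbl2) bind E2F transcription factors and hold down the genes needed for DNA replication. Cyclin D with CDK4 or CDK6, and then cyclin E with CDK2, phosphorylate the pocket proteins and release E2F. INK4 proteins bind CDK4 and CDK6 only, whereas CIP/KIP proteins bind cyclin-CDK complexes more broadly. Much of this control is at the level of protein: p27, the product of Cdkn1b, is removed by ubiquitin-dependent degradation, and pocket proteins are switched by phosphorylation. In the mouse prostate, loss of p27 is known to increase growth of the epithelium.

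The promoters of Cdkn2a and Rbl1 are shown because Cdkn2a gives rise to 2 different proteins from separate starts, and because an E2F site would put a gene of this family under the factor that it restrains. The windows are the 250 bases before each start in RefSeq (mouse build GRCm38.p6), written 5′ to 3′ on the gene's own strand, in lower case with any E2F word in capitals. The words searched, on both strands, were TTTCCCGC, TTTCGCGC, TTTGCCGC and TTTGGCGC, and no other motif was searched.
Cdkn2a distal start, chr4:89294620-89294869, minus strand: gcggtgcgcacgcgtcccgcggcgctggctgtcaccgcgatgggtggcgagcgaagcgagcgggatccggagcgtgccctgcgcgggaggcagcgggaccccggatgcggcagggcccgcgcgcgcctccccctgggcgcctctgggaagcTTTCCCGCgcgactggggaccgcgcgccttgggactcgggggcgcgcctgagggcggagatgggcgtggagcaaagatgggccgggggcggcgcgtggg
Cdkn2a proximal start, chr4:89282193-89282442, minus strand: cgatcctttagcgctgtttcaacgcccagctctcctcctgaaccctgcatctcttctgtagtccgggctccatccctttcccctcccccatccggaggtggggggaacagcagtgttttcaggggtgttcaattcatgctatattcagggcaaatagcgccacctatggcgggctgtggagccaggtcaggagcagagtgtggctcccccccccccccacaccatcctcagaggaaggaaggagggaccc
Rbl1, chr2:157204535-157204784, minus strand: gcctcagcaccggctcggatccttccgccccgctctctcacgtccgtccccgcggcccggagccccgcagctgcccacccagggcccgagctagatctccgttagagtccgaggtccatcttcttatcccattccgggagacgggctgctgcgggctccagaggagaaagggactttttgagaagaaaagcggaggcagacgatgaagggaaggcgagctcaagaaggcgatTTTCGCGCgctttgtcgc
The distal start, whose transcript is known to encode p19ARF, held TTTCCCGC ending 91 bases before the start, and the Rbl1 window held TTTCGCGC ending 10 bases before it. The proximal start of Cdkn2a, 12427 bases away and known to encode p16INK4a, held none of the words. Windows were found for 7 of the 9 genes (9 windows), and these were the 2 that held a word. Among all 32851 RefSeq windows, 1.86% held one, and among the 9178 windows with a G and C content of at least 60% the share was 3.52%. The single probe set of Cdkn2a cannot tell the p16INK4a and p19ARF transcripts apart.

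The arrays were alike in scale, with medians between 7.16 and 7.20 on the log2 scale. The luminal epithelial markers, of which 8 of 10 were analysed here, averaged 12.10 to 12.20 on NAC arrays and 12.19 to 12.23 on vehicle arrays. Of these 8, 5 had a log2 fold change above 0 and 3 below 0, with a median of 0.0059. The lowest was Spink8 at -0.52, the 1 marker of the 8 with an unadjusted limma p under 0.05, where 2.53% of all genes were lower. NAC replicate 3 stood apart: the 5 lung epithelium genes averaged 5.68 to 8.74 on NAC arrays, with replicate 3 at the top, and 5.62 to 5.74 on vehicle arrays, and its fat and skeletal muscle genes were also the highest of the 7 arrays. The 7 measured genes of dividing cells averaged 7.08 to 7.55 on NAC arrays and 7.22 to 7.27 on vehicle arrays, and all 7 had a log2 fold change above 0. Their median was 0.15, 0 of the 7 had an unadjusted limma p under 0.05, and the NAC and vehicle arrays overlapped for all 7. The 7 seminal vesicle genes averaged 8.62 (NAC replicate 1) to 10.64 (NAC replicate 4) on NAC arrays and 10.01 to 10.39 on vehicle arrays. All 7 had a log2 fold change below 0, with a median of -0.53. Of them 3 had an unadjusted p under 0.05, where 2.53% of all genes were lower at that threshold. The NAC arrays lay below all vehicle arrays for 3, against 2.18% of all genes. On NAC replicate 4, Svs2 was at 13.53 against at most 11.57 on vehicle arrays, and Pate4 at 11.43 against at most 9.17. Svs1 was slightly above the vehicle arrays there, and Svs5 was inside their range. Svs3a, Svs4 and Svs6 were below every vehicle array on that array too. The 6 macrophage genes all had a log2 fold change above 0, with a median of 0.18 and 0 at an unadjusted p under 0.05. The NAC arrays lay above all vehicle arrays for 1 of the 6, against 1.29% of all genes. NAC replicate 4 had the lowest value of the dividing-cell list and the narrowest spread of values, with an interquartile range of 2.98 against 3.01 to 3.10 on the other NAC arrays and 3.06 to 3.14 on vehicle arrays. These are whole-tissue values, in which fewer cells of a type and less RNA per cell cannot be told apart.

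No CDK inhibitor or pocket protein gene passed the test between NAC and vehicle. Of the 9 genes, 5 had a log2 fold change above 0 and 4 below 0, where 49.5% and 50.5% of all genes fell. With limma, 0 of the 9 had an adjusted p under 0.05, as did 0 of all 18938 genes (0%), and 0 of the 9 had an unadjusted p under 0.05, against 4.41% of all genes. The NAC and vehicle arrays overlapped for every one of the 9, whereas they did not overlap for 3.47% of all genes. The 95% confidence intervals of the 9 fold changes lay between 0.747 and 1.15. The median log2 fold change was 0.0036 for the 9 genes and -0.00029 for all genes. By family it was -0.05 for the CIP/KIP inhibitors, 0.01 for the INK4 inhibitors and -0.09 for the pocket proteins. With each array left out in turn, these medians ran from -0.08 to 0.0022 (above 0 without vehicle replicate 1), from -0.0060 to 0.02 (below 0 without NAC replicate 4) and from -0.13 to -0.04.

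**Figure D1:**
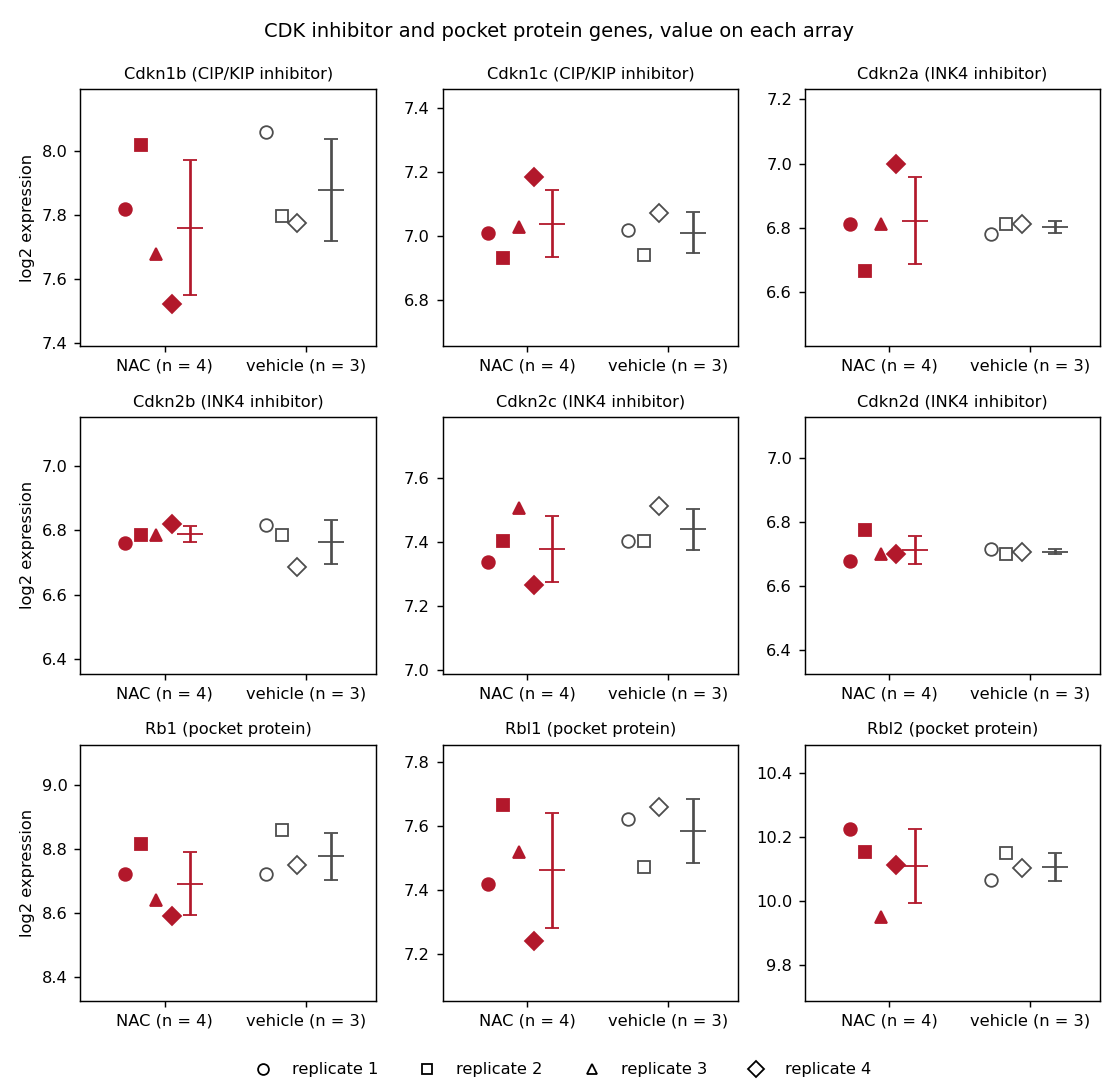
Log2 expression (vertical axis) of the 9 genes on each NAC array (filled, left) and vehicle array (open, right); the symbol gives the replicate number, the bars beside the points give the mean and SD, and every panel spans the same height. The groups overlap in all 9 panels, and Cdkn1b and Rbl1 show the widest scatter.

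Cdkn1b, which encodes p27, varied most among the 9 genes, over a range of 0.54 on the log2 scale. It measured 7.82, 8.02, 7.68 and 7.52 on NAC replicates 1 to 4, and 8.06, 7.80 and 7.78 on vehicle replicates 1, 2 and 4. NAC replicate 4 was the lowest array and vehicle replicate 1 the highest, with NAC replicates 1 and 2 inside the vehicle range. The means were 7.76 ± 0.21 on NAC arrays (SD, n = 4) and 7.88 ± 0.16 on vehicle arrays (SD, n = 3). The log2 fold change was -0.12 (SE 0.13), or 0.922-fold with a 95% interval of 0.747 to 1.14, with a limma adjusted p of 0.857 and an exact permutation p of 0.429. The smallest two-sided p that the 35 splits of 4 against 3 arrays allow is 0.029.

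Cdkn1c encodes p57, the CIP/KIP inhibitor of embryonic growth, and is expressed from the maternal allele. It measured 7.01, 6.93, 7.03 and 7.18 on NAC replicates 1 to 4, and 7.02, 6.94 and 7.07 on vehicle replicates 1, 2 and 4. The NAC arrays reached both above and below the vehicle arrays. The log2 fold change was 0.03 (SE 0.06; 1.02-fold, 95% interval 0.916 to 1.13; exact permutation p = 0.771).

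Cdkn2a, the source of p16INK4a and p19ARF and a widely used marker of senescence, measured 6.81, 6.67, 6.81 and 7.00 on NAC replicates 1 to 4, and 6.78, 6.81 and 6.81 on vehicle replicates 1, 2 and 4. The vehicle arrays were nearly equal, and NAC replicates 2 and 4 lay on either side of them. The same value, to 6 decimals, stood on 4 of the 7 arrays. Such ties were common in the deposited values: 40% of all genes held the same value on 3 or more arrays, as did 4 of the 9 genes here, the 4 INK4 inhibitors, and 65% of all genes held it on 2 or more, as did 5 of the 9. The log2 fold change of Cdkn2a was 0.02 (SE 0.07), or 1.01-fold with a 95% interval of 0.898 to 1.15, with a limma adjusted p of 0.961 and an exact permutation p of 0.857.

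Cdkn2b, its neighbour on chromosome 4, encodes p15, an inhibitor induced by TGF-beta. It measured 6.76, 6.79, 6.79 and 6.82 on NAC replicates 1 to 4, and 6.82, 6.79 and 6.69 on vehicle replicates 1, 2 and 4. The NAC values all lay at or close to the vehicle range, and the log2 fold change was 0.02 (SE 0.04; 1.02-fold, 95% interval 0.952 to 1.09; exact permutation p = 0.600).

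Cdkn2c and Cdkn2d encode p18 and p19INK4d, the INK4 inhibitors that many tissues express during normal development. Cdkn2c measured 7.34, 7.40, 7.51 and 7.27 on NAC replicates 1 to 4, and 7.40, 7.40 and 7.51 on vehicle replicates 1, 2 and 4. NAC replicates 1 and 4 lay below every vehicle array and the other NAC arrays lay among them, with a log2 fold change of -0.06 (SE 0.06; 0.959-fold, 95% interval 0.864 to 1.06; exact permutation p = 0.371). Cdkn2d had the smallest range of the 9 genes, 0.10 on the log2 scale. It measured 6.68, 6.77, 6.70 and 6.70 on NAC replicates 1 to 4, and 6.71, 6.70 and 6.70 on vehicle replicates 1, 2 and 4. Its interval was the narrowest of the 9, from 0.951-fold to 1.06-fold around a fold of 1.00.

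Among the pocket proteins, Rb1, the retinoblastoma tumour suppressor, measured 8.72, 8.81, 8.64 and 8.59 on NAC replicates 1 to 4, and 8.72, 8.86 and 8.75 on vehicle replicates 1, 2 and 4. NAC replicates 3 and 4 were below every vehicle array, while NAC replicate 1 equalled vehicle replicate 1. The means were 8.69 ± 0.10 on NAC arrays (SD, n = 4) and 8.78 ± 0.07 on vehicle arrays (SD, n = 3). The log2 fold change was -0.09 (SE 0.06), or 0.943-fold with a 95% interval of 0.850 to 1.05. Its limma p of 0.220 was the smallest of the 9 genes, with an adjusted p of 0.827 and an exact permutation p of 0.257.

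Rbl1 encodes p107, the pocket protein that is most abundant in dividing cells. It measured 7.42, 7.67, 7.52 and 7.24 on NAC replicates 1 to 4, and 7.62, 7.47 and 7.66 on vehicle replicates 1, 2 and 4. NAC replicate 4 was the lowest array and NAC replicate 2 the highest. The log2 fold change was -0.12 (SE 0.10; 0.919-fold, 95% interval 0.776 to 1.09; exact permutation p = 0.371), the lowest of the 9.

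Rbl2 encodes p130, the pocket protein of resting cells and a subunit of the DREAM repressor complex. It measured 10.22, 10.15, 9.95 and 10.11 on NAC replicates 1 to 4, and 10.06, 10.15 and 10.10 on vehicle replicates 1, 2 and 4. The NAC arrays spread to both sides of the vehicle arrays, with a log2 fold change of 0.0036 (SE 0.07; 1.00-fold, 95% interval 0.899 to 1.12; exact permutation p = 0.857). Its lowest array was NAC replicate 3, the array with lung, fat and muscle RNA, whose part in this value was not tested.

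**Figure D2:**
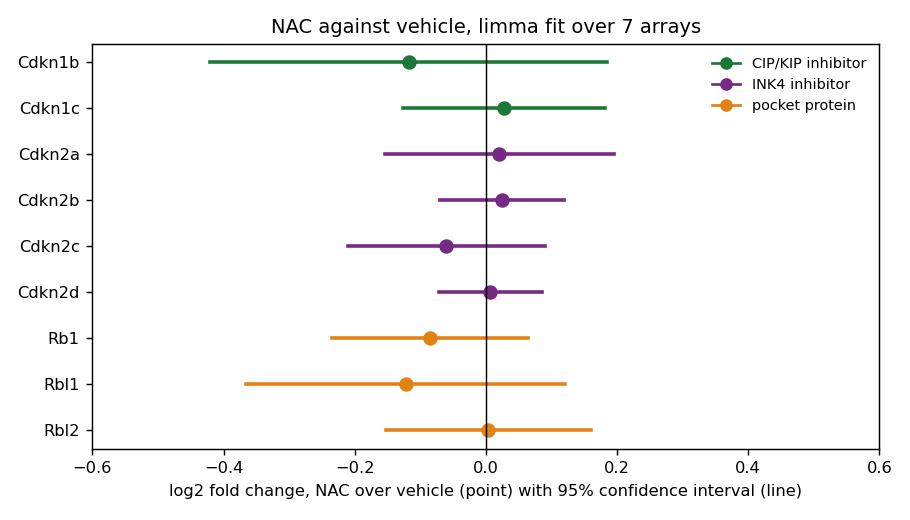
Log2 fold change of NAC over vehicle (horizontal axis, points) with its 95% confidence interval (lines) for the 9 genes (vertical axis), coloured by family. Every interval crosses 0, the widest being that of Cdkn1b and the narrowest that of Cdkn2d.

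A single array lay at the edge for most of the 9 genes. NAC replicate 4 was the lowest of the 7 arrays for Cdkn1b, Cdkn2c, Rb1 and Rbl1 and the highest for Cdkn2a, Cdkn1c and Cdkn2b, that is for 7 of the 9, where 17.3% of all genes were lowest and 19.3% highest on it. This was noticed in the values and has no test. Without NAC replicate 4 the log2 fold change was -0.04 for Cdkn1b, -0.05 for Rb1 and -0.05 for Rbl1, and that of Cdkn2a turned to -0.04 and that of Cdkn1c to -0.02. Without NAC replicates 3 and 4 together, that of Cdkn1b turned to 0.04, and those of Rb1 and Rbl1 were -0.0094 and -0.04. The array was also the lowest of the 7 for the dividing-cell and luminal epithelial lists and the highest for the seminal vesicle list. Among the luminal markers, Spink8 was at 10.03 on it against 10.68 to 10.79 on vehicle arrays. Pbsn, Krt8, Krt18, Hoxb13 and Cd24a lay inside the vehicle range there, Tgm4 just below it and Epcam above it. The seminal vesicle genes Svs2, Pate4 and Svs1 were highest on this array. Svs3a, Svs4 and Svs6 lay below every vehicle array there, and Svs5 inside their range. The part of these lists in the values of the 9 genes was not tested.

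**Figure D3:**
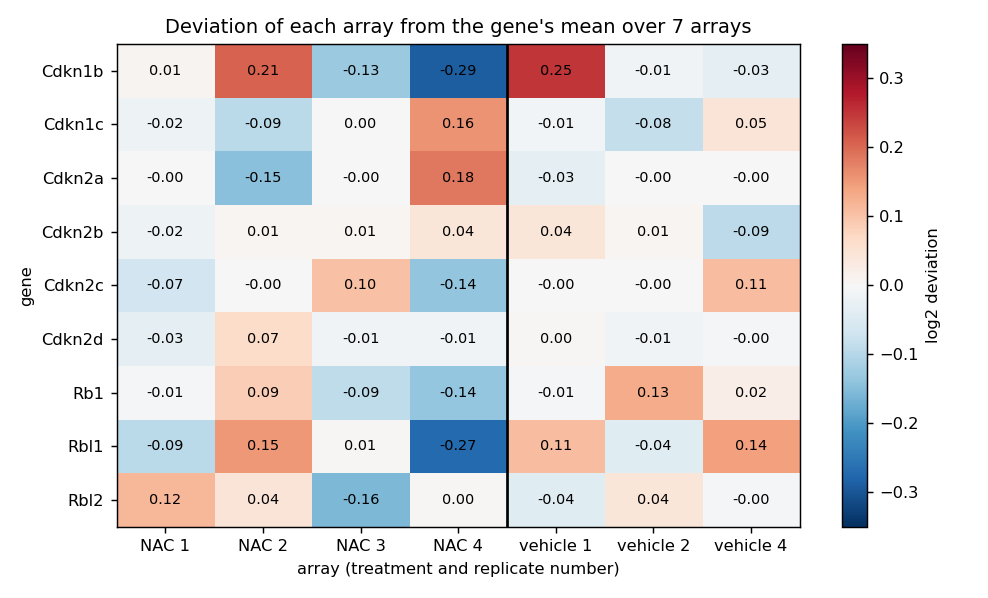
Deviation of each array (horizontal axis, NAC left of the line and vehicle right of it) from the mean of each gene over the 7 arrays, on the log2 scale (colour and printed value), for the 9 genes (vertical axis). NAC replicate 4 holds the lowest value of 4 genes and the highest of 3.

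The 9 genes did not vary together. Of their 36 pairs, 18 had a positive correlation of deviations from the group means over the 7 arrays. Cdkn2a and Cdkn1c were the pair with the highest correlation (r = 0.87), followed by Cdkn1b with Rbl1 (r = 0.73), while Cdkn2a and Rbl1 ran opposite (r = -0.90). Of the values themselves, with no group means removed, the same pairs correlated at 0.87, 0.77 and -0.85 over the 7 arrays, and at 0.61, 0.51 and -0.58 without NAC replicate 4. The points share an array and its normalization, and these values are descriptions with no test. Among about 2070 genes with a range of at least 0.5 on the log2 scale, those most like Cdkn1b over the 7 arrays were Krt23, Clec2e and Olfr725 (r = 0.95 each). Those most like Rbl1 were Ppwd1 (r = 0.96), Rps13 and Rnpc3 (r = 0.95 each), and those most like Cdkn2a were Amh, Skor1 (r = 0.98 each) and Vax2 (r = 0.97). An r above 0.9 was reached by 15 genes for Cdkn1b, 19 for Rbl1 and 37 for Cdkn2a. The named matches of Cdkn1b and Rbl1 were lowest on NAC replicate 4, and those of Cdkn2a highest on it. Without that array these correlations were not computed.

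The genes that act with or on these brakes held no adjusted call either. In 13 lists, 131 of 142 listed genes outside the 9 were measured, 58 with a log2 fold change above 0 and 73 below 0, and 0 had an adjusted p under 0.05. At an unadjusted p under 0.05, 2 were higher with NAC and 5 were lower (3.82%), where 1.89% and 2.53% of all genes were. The NAC arrays lay below all vehicle arrays for 5 of the 131 genes and above them for 0, against 2.18% and 1.29% of all genes. With each array left out in turn, 7 of the 13 list medians changed sign at least once and 6 did not, namely those of inhibitor turnover, the INK4 locus regulators, the ARF-p53 axis, the Kcnq1 domain, the imprinted growth genes and the chromatin partners.

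The targets of the INK4 inhibitors, 5 cyclin D and CDK4/6 genes, had a median log2 fold change of -0.01, with 2 above 0 and 3 below 0. Ccnd1, the cyclin D of most epithelia, was at 0.08 (SE 0.14) and Cdk4 at -0.01 (SE 0.04). Of 14 genes of the cyclin E, A and B kinases and the kinases and phosphatases that switch them, 9 were above 0 and 5 below 0, with a median of 0.0088. The 2 with an unadjusted p under 0.05 were subunits of the CDK-activating kinase, which phosphorylates the T-loop of CDKs. Cdk7 measured 6.87, 7.04, 6.99 and 6.89 on NAC replicates 1 to 4, and 7.15, 7.04 and 7.26 on vehicle replicates 1, 2 and 4 (log2 fold change -0.20, SE 0.07; limma adjusted p = 0.827). Its partner Ccnh measured 8.69, 8.71, 8.62 and 8.54 on NAC replicates 1 to 4, and 8.78, 8.79 and 8.74 on vehicle replicates 1, 2 and 4 (log2 fold change -0.13, SE 0.05; limma adjusted p = 0.827). The NAC arrays were lower than the vehicle arrays for both genes, by a narrow margin for each. Mnat1, another subunit of this kinase, was at -0.04 (SE 0.03), and its NAC and vehicle arrays overlapped.

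The 10 E2F and DP genes, a family that includes the factors restrained by pocket proteins, split 5 and 5, with a median of -0.0018. E2f1, an activator, measured 6.94, 6.94, 7.33 and 6.95 on NAC replicates 1 to 4, and 6.73, 6.94 and 6.94 on vehicle replicates 1, 2 and 4, and NAC replicate 3 was the one array above the rest. E2f4, the repressor that pairs with p107 and p130, was at -0.01 (SE 0.03). The 9 other genes listed as DREAM and MuvB subunits or as factors acting with them, such as Foxm1 and Dyrk1a, had a median of -0.02, with 4 above 0 and 5 below 0.

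The probe set annotated to Hdac1, a histone deacetylase that pocket proteins bring to E2F promoters, had the lowest fold change among these lists. It was the 1 probe set of that name. Its match to the Hdac1 locus was not checked, so its values may not be those of Hdac1. It measured 8.03, 8.38, 8.20 and 8.53 on NAC replicates 1 to 4, and 8.66, 8.78 and 8.81 on vehicle replicates 1, 2 and 4. All NAC arrays were below all vehicle arrays, with a log2 fold change of -0.47 (SE 0.12), an unadjusted limma p of 0.006 and an adjusted p of 0.827. Of the 14 measured chromatin enzymes and phosphatases that act with pocket proteins, 12 were below 0 and 2 above 0, with a median of -0.05, which was -0.02 without NAC replicate 4.

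Among genes that set the level of the inhibitors, 14 genes of inhibitor turnover, among them ubiquitin ligases of p27 and p57, had a median of -0.02, with 5 above 0 and 9 below 0. Skp2 and Cks1b, which mark p27 for degradation, were at 0.05 (SE 0.04) and 0.08 (SE 0.05). Of 17 regulators of the INK4 locus, Polycomb genes among them, 14 were below 0 and 3 above 0, with a median of -0.07. That median was -0.02 without vehicle replicate 1 and -0.04 without NAC replicate 3 or NAC replicate 4. The list also holds Ets1 and Ets2, so it is not made of repressors alone, and its direction has no single meaning for Cdkn2a or Cdkn2b. Bmi1 and Ezh2, which repress Cdkn2a, were at -0.02 (SE 0.03) and 0.03 (SE 0.10). Tbx2, another repressor of the locus, measured 9.16, 9.18, 9.11 and 9.31 on NAC replicates 1 to 4, and 9.34, 9.27 and 9.40 on vehicle replicates 1, 2 and 4, with overlap (log2 fold change -0.15, SE 0.06; limma adjusted p = 0.827). Mtap, the metabolic gene that lies beside Cdkn2a, measured 8.27, 8.35, 8.25 and 8.16 on NAC replicates 1 to 4, and 8.50, 8.35 and 8.45 on vehicle replicates 1, 2 and 4 (log2 fold change -0.17, SE 0.06; limma adjusted p = 0.827). The remaining genes whose NAC arrays all lay below the vehicle arrays were Hexim1 (log2 fold change -0.08), an inhibitor of the elongation kinase P-TEFb, and Cbx7 (-0.07), a Polycomb gene named after its values were seen.

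Cdkn1c belongs to the imprinted genes that control growth, and of the imprinted growth genes elsewhere 11 were measured. Of these, 8 were above 0 and 3 below 0, with a median of 0.10. The 2 with an unadjusted p under 0.05 were Ndn (log2 fold change 0.13, SE 0.05) and Plagl1 (0.17, SE 0.07), both with a limma adjusted p of 0.827. The list was highest on NAC replicate 3, the array with lung, fat and muscle RNA, and leaving out that array gave a median of 0.02, leaving out vehicle replicate 4 one of 0.03. The 9 other genes of the Kcnq1 domain, in which Cdkn1c lies, had a median of 0.04, which was 0.02 without NAC replicate 4 or vehicle replicate 1. The 15 genes listed with TGF-beta and FOXO signalling, pathways that induce Cdkn2b and Cdkn1b, had a median of 0.00095, with 8 above 0 and 7 below 0. The list also holds Myc and Smad7, so it is not made of inducers alone. Of 5 measured genes of the ARF-p53 axis, 4 were below 0 and 1 above 0, with a median of -0.12, and of 7 other CDK-inhibiting proteins 5 were above 0 and 2 below 0, with a median of 0.03.

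**Figure D4:**
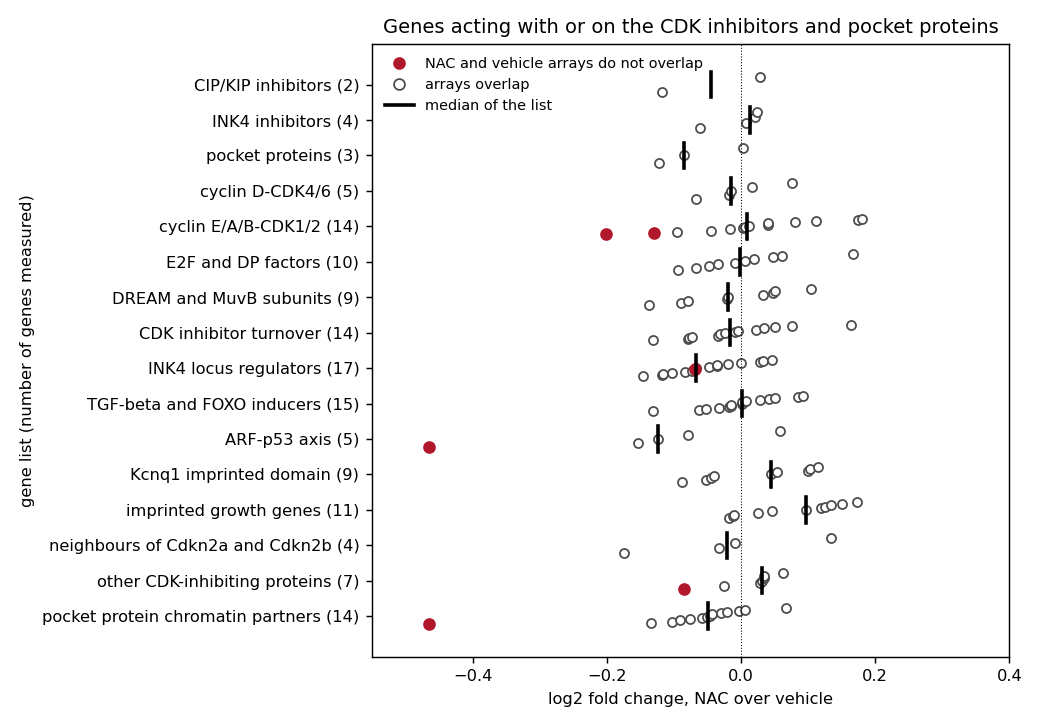
Log2 fold change of NAC over vehicle (horizontal axis) for the genes of each list (vertical axis, with the number measured); points are genes, filled where the NAC and vehicle arrays do not overlap, and the vertical bars are list medians. The probe set annotated to Hdac1, at -0.47, is in 2 lists and is the point farthest from 0, and its match to the locus was not checked.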

How the data were processed

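RNA of Nkx3.1-/- prostates was measured on 4 NAC and 3 vehicle arrays, grouped by their labels, and 1 further vehicle array failed the authors' quality control. The authors deposited log2 values made by RMA (background correction, quantile normalization and median polish), so levels are not comparable between genes and signal over background cannot be seen. Of 20696 probe sets, 18950 name 1 gene, 678 several and 1068 none in the annotation used here. Only those with 1 gene were kept, and the probe set with the highest mean stood for each of 18938 genes. NAC was compared with vehicle by limma 3.58.1 in R 4.3.3 (two-sided, Benjamini-Hochberg over all genes, threshold 0.05, no covariates), with an exact permutation test of the absolute difference of means over the 35 splits. The fit was tested on simulated data. With 7 arrays, precision rests on their number.

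The 9 genes and the gene lists were chosen with earlier results of these data known, the lists from textbook knowledge. The genes named are the 9, a few regulators chosen by name (Skp2, Cks1b, Ccnd1, Cdk4, E2f1, E2f4, Bmi1 and Ezh2), up to 3 genes per list with the smallest unadjusted p, and the 3 most correlated with each of the 3 genes of widest range. Alternatives were other fits, scalings and filters, the replicate number as a block, and each array left out. Leaving out NAC replicates 3 and 4 together was added after seeing the data.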

Additional observations from a re-analysis of the deposited data

How the results depend on the processing

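Among the 9 genes, adjusted p-values under every alternative stayed at or above 0.667, so no call was gained, and the smallest unadjusted limma p was 0.061, for Rb1 without NAC replicate 2. Signs were not stable for values near 0. Quantile normalizing again turned Cdkn2d to -0.012. With each array left out in turn, the log2 fold change ran from -0.20 to -0.03 for Cdkn1b, -0.10 to -0.02 for Cdkn2c, -0.13 to -0.04 for Rb1 and -0.19 to -0.05 for Rbl1, which kept their sign. It ran from -0.038 to 0.073 for Cdkn2a (below 0 without NAC replicate 4), -0.020 to 0.063 for Cdkn1c (without NAC replicate 4 or vehicle replicate 2), -0.014 to 0.051 for Cdkn2b (without vehicle replicate 4), -0.014 to 0.018 for Cdkn2d (without NAC replicate 2) and -0.034 to 0.056 for Rbl2 (without NAC replicate 1, NAC replicate 2 or vehicle replicate 1), and the median of the 9 from -0.034 to 0.011. Without both NAC replicates 3 and 4, a choice made after seeing the data, Cdkn1b turned to 0.041, Cdkn2a to -0.062 and Cdkn1c to -0.040, and the INK4 median was -0.027, while Rb1 and the pocket protein median were at -0.0094 and Rbl1 at -0.041. The median of the INK4 locus regulators was then -0.013. Over all genes, 0 to 1 had an adjusted p under 0.05 with an array left out (1 without NAC replicate 4). Those higher at an unadjusted p under 0.05 numbered 259 to 454, and those lower 295 (without vehicle replicate 1) to 803 (without NAC replicate 2). Without dim genes 140 were higher, in a test of fewer genes. The cause of the other shifts was not tested.

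Whether equal replicate numbers mark paired arrays was not settled. The paper split littermates between NAC and vehicle cages, and the labels do not say which arrays came from littermates. Deviations correlated at 0.21, 0.29 and -0.07 for numbers 1, 2 and 4, and from -0.27 to 0.21 for unequal numbers. The deviations were taken from the group means, which ties these correlations to one another, so they cannot decide it. With the replicate number as a block, which drops NAC replicate 3 because it has no partner, 0 genes had an adjusted p under 0.05, 464 were higher and 492 lower at an unadjusted p under 0.05, and Cdkn1b was at -0.09, Cdkn2c at -0.10 and Rbl1 at -0.14.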
